A study of Mus musculus with 12 samples.

Results

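The extracellular matrix proteases and protease inhibitors described here are 10 of the 39017 genes listed in the count table: the matrix metalloproteinases *Mmp10*, *Mmp2*, *Mmp11*, *Mmp14* and *Mmp15*, the proteoglycan-cleaving protease *Adamts1*, the tissue inhibitors of metalloproteinases *Timp1*, *Timp2* and *Timp3*, and the plasminogen activator *Plau*. They were taken by symbol, and all 10 passed the filter on low counts that left 16527 genes for testing. The genes were put together with results of these data known, and which measured values they were chosen by is not recorded, so their differences and p-values describe these tumors and are no independent support. RNA was measured in 12 lung tumors of C57BL/6 mice, 3 in each of 4 groups. All mice carried K-ras LSL-G12D/WT, p53 Fl/Fl and CCSP-rtTA, and all received Lenti.TRE-PPARaD13_PGK-Cre into the airways at 6000 viral units per mouse, so that Cre removed p53 and switched on mutant K-ras in the infected cells. KPG1 and KPG1-PPARαΔ13 mice also carried Glut1 Fl/Fl, the conditional allele of the glucose transporter gene *Slc2a1*, whereas KP and KP-PPARαΔ13 mice did not. The KP-PPARαΔ13 and KPG1-PPARαΔ13 mice were given food containing doxycycline (625 mg/kg) over 15 days, which induces the dominant negative PPARα construct, and the KP and KPG1 mice ate a regular diet. Tumors were taken 26 weeks after initiation, immune cells carrying CD45 were removed with magnetic beads, and RNA came from the remaining cells. The activator rtTA is driven by the CCSP promoter, a promoter of airway club cells, and which cells of these tumors expressed the construct was not measured. The tumors came from 9 mice as read from their labels, with 2 mice for KP, 3 for KP-PPARαΔ13, 2 for KPG1 and 2 for KPG1-PPARαΔ13. Control mice had no doxycycline, so construct and drug cannot be told apart.

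Matrix metalloproteinases are zinc enzymes that cut collagens, laminins, proteoglycans and other matrix proteins, and they are made as inactive precursors. Most are secreted, while the membrane types are anchored at the cell surface, where MT1-MMP, the product of *Mmp14*, activates the MMP-2 precursor together with TIMP-2. The TIMPs block the active site of metalloproteinases, TIMP-3 bound to the matrix also inhibits ADAMTS enzymes, and urokinase, the product of *Plau*, turns plasminogen into plasmin, which cuts fibrin and can activate MMP precursors. In lung tumors these genes are used by tumor cells and by fibroblasts. Doxycycline is itself a known inhibitor of MMP enzyme activity. The values here are RNA levels, and enzyme activity was not measured.

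*Mmp10* and *Adamts1* had the widest separation by diet among the 10 genes, and *Timp1* separated by diet in KP tumors, so the promoters of these 3 genes are shown. Each sequence is the 250 bases before the transcription start in RefSeq's GRCm38.p6 table, which had an entry for 8 of the 10 genes and none for *Mmp2* and *Plau*. Capitals mark the AP-1 site TGAGTCA, the binding motif of Fos and Jun proteins, and the TATA box TATAAA, each searched on both strands with no overlap between them.
Mmp10 promoter, chr9:7502092-7502341, plus strand: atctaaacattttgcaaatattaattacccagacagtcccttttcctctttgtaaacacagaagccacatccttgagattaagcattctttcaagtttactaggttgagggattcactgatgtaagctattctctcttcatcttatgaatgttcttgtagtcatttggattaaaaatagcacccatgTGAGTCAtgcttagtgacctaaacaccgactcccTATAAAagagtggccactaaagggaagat
Adamts1 promoter, chr16:85803114-85803363, minus strand: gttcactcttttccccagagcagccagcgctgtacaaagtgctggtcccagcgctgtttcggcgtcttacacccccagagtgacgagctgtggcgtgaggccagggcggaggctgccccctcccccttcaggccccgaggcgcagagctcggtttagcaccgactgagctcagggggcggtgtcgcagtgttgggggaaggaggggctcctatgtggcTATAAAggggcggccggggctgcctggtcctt
Timp1 promoter, chrX:20869916-20870165, plus strand: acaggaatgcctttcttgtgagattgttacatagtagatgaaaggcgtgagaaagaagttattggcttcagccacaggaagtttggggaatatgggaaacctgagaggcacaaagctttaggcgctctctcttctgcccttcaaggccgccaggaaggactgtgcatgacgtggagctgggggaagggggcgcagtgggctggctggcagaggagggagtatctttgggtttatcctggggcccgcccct
In the *Mmp10* promoter the AP-1 site begins 63 bases and the TATA box 29 bases before the start. The *Adamts1* promoter holds the TATA box 32 bases before the start and no TGAGTCA, and the *Timp1* promoter holds neither word. Among the 8 genes with an entry, 1 has the AP-1 site and 2 have the TATA box. Of 32851 promoters in the table, 4.46% hold the AP-1 site and 12.4% the TATA box within the same length. A match describes the letters only.

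The levels of the genes were compared with each other as TPM, which divides by exon length. *Timp2* was highest, with a median of 171 TPM over the 12 tumors (range 74.8 to 257), followed by *Timp3* at 103 TPM. *Adamts1*, *Mmp14* and *Mmp15* had medians of 80.3, 78.5 and 73.2 TPM. *Mmp11*, which encodes stromelysin-3, had a median of 32.5 TPM and *Plau* one of 23.7 TPM. *Timp1*, *Mmp2* and *Mmp10* were lowest, with medians of 14.9, 5.18 and 2.39 TPM. In this order only 2 neighboring steps held in 12 of 12 tumors, *Mmp15* above *Mmp11* and *Timp1* above *Mmp2*. *Timp2* was above *Timp3* in 9 tumors, and *Adamts1* was above *Mmp14* in 6 and *Mmp14* above *Mmp15* in 6, so these neighbors did not differ beyond their spread. The 10 genes together made up 0.0507% to 0.0847% of all TPM. The least variable was *Mmp15*, with a standard deviation (SD) of 0.43 on the log2 CPM scale over the 12 tumors, and the most variable was *Mmp10*, with an SD of 2.05.

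**Figure D1:**
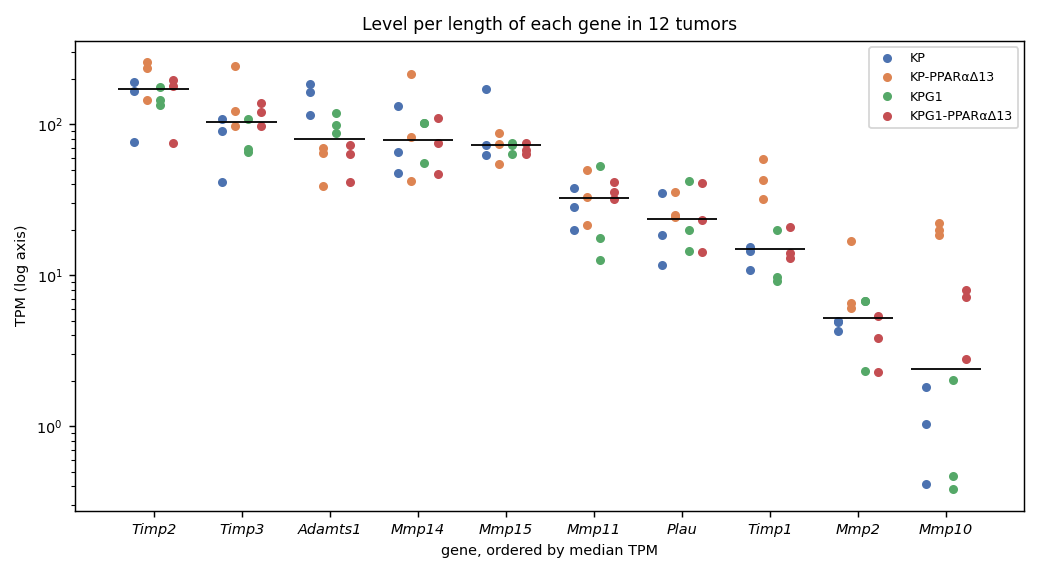
Level per exon length (TPM, log axis) of the 10 genes in the 12 tumors, 1 point per tumor, colored by group, with a line at the median of all 12. *Timp2* has the highest median (171 TPM), and *Mmp10* has the lowest (2.39 TPM) and the widest range, with the 3 KP-PPARαΔ13 tumors at 18.4 to 22.2 TPM.

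In the comparison of doxycycline with the regular diet, no member passed edgeR's quasi-likelihood test at an adjusted p under 0.05 in KP, where 0.00605% of all genes tested did, or in KPG1, where 0.00605% did. By unadjusted p under 0.05, 5 of the 10 genes were counted in KP (4 higher and 1 lower, against 11.4% of all genes) and 2 in KPG1 (1 higher and 1 lower, against 10.8%). DESeq2, run on the same counts, called 3 members in KP, *Mmp10* and *Timp1* higher and *Adamts1* lower, where it called 2.26% of all genes, and it called *Mmp10* in KPG1, where it called 1.28%. The median log2 difference of the 10 genes with doxycycline was 0.58 in KP, against -0.01 over all genes tested, and -0.11 in KPG1, against 0.02. Because the fit with edgeR made almost no call, the values in each tumor are given first below, as CPM normalized by TMM, in the order of replicates 1 to 3.

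**Figure D2:**
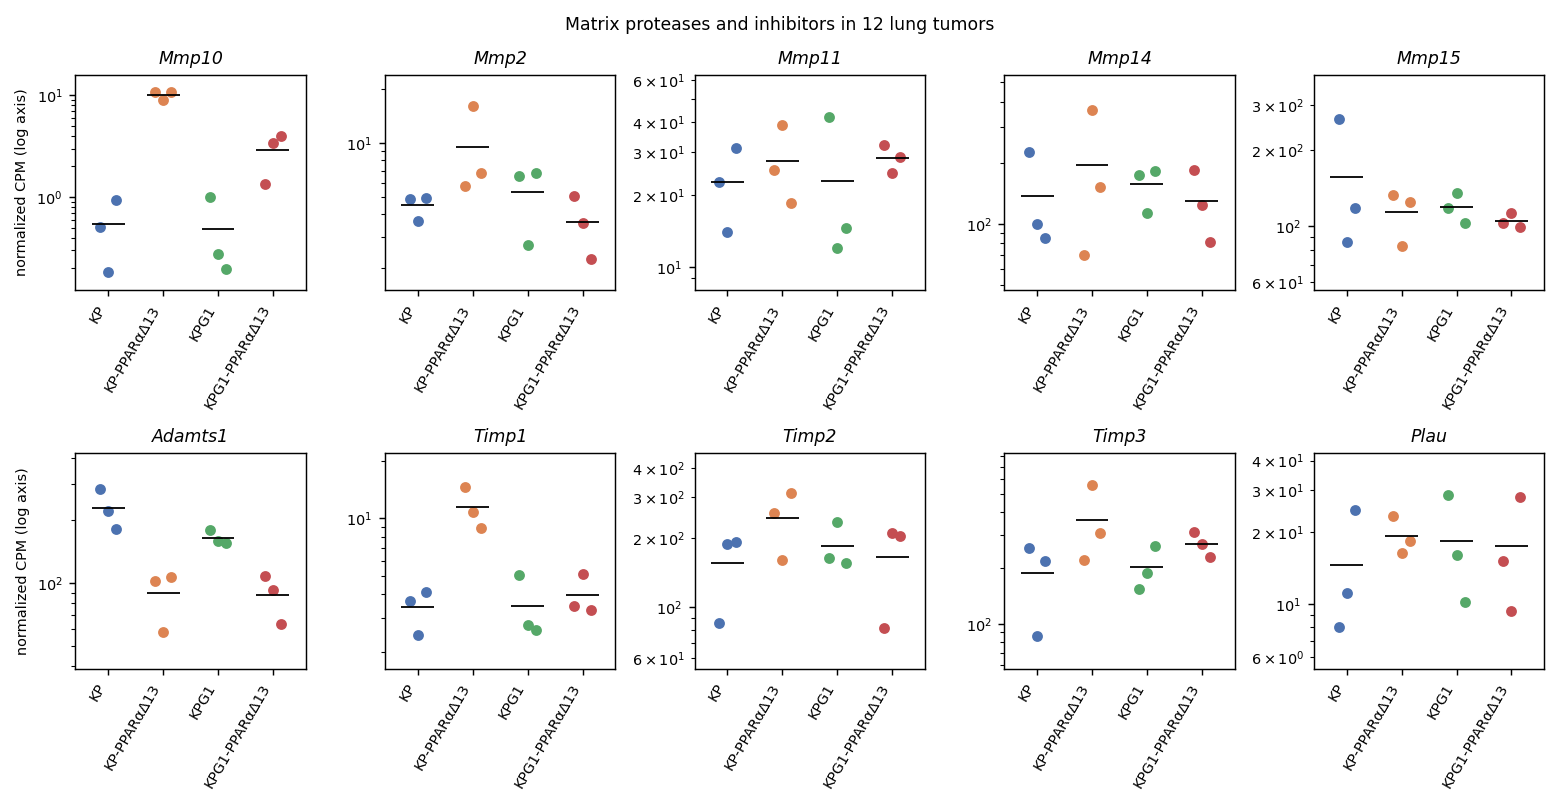
Normalized CPM (log axis, a separate scale for each gene) of the 10 genes in the 4 groups, 1 point per tumor in the order of replicates 1 to 3, with a line at the group mean (n = 3). The 6 doxycycline tumors lie above the 6 regular-diet tumors for *Mmp10* and below them for *Adamts1*, and *Timp1* is high in the KP-PPARαΔ13 tumors only, at 8.88 to 14.6 CPM against at most 5.12 CPM in the other 9.

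*Mmp10* (chromosome 9, 7502352 to 7510240, plus strand, mm10) encodes stromelysin-2, a secreted protease with a broad range of matrix substrates. It was at 0.514, 0.182 and 0.940 CPM in the KP tumors and at 10.7, 8.97 and 10.7 CPM in the KP-PPARαΔ13 tumors. In the KPG1 tumors it was at 1.00, 0.275 and 0.198 CPM, and in the KPG1-PPARαΔ13 tumors at 1.33, 3.43 and 3.97 CPM. Every doxycycline tumor was above every regular-diet tumor, the groups did not overlap in either genotype, and the KP-PPARαΔ13 tumors were above all others. The log2 difference was 4.21 in KP (SE 0.75, 18.5-fold, edgeR adjusted p = 0.240) and 2.57 in KPG1 (SE 0.71, 5.95-fold, edgeR adjusted p = 0.420). Averaged over both genotypes it was 3.39 (SE 0.52, edgeR adjusted p = 0.1002). The values of the regular-diet tumors rest on 6 to 27 reads each, and the difference was 4.85 in KP without KP replicate 3 and 3.59 in KPG1 without KPG1 replicate 1. With doxycycline, *Mmp10* was lower in KPG1-PPARαΔ13 than in KP-PPARαΔ13 tumors without overlap (log2 difference -1.79, edgeR adjusted p = 0.492), and on the regular diet the log2 difference between genotypes was -0.16 (SE 0.70). The doxycycline difference of KPG1 minus that of KP was -1.64, with an unadjusted 95% interval of -3.76 to 0.49 (edgeR adjusted p = 0.511).

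*Mmp2* (chromosome 8, 92827291 to 92853420, plus strand), which encodes gelatinase A, a protease of denatured collagen and basement membrane made chiefly by stromal cells, was at 4.86, 3.67 and 4.91 CPM in KP and at 5.72, 16.1 and 6.83 CPM in KP-PPARαΔ13 tumors. It was at 6.52, 2.68 and 6.81 CPM in KPG1 and at 5.05, 3.59 and 2.25 CPM in KPG1-PPARαΔ13 tumors. The KP groups did not overlap, with 1 KP-PPARαΔ13 tumor far above the rest, whereas the KPG1 groups overlapped. The log2 difference with doxycycline was 1.09 in KP (SE 0.50, edgeR adjusted p = 0.438) and -0.56 in KPG1 (SE 0.49, edgeR adjusted p = 0.706). In the model without KP-PPARαΔ13 replicate 2 the difference in KP was 0.49. The difference between the genotypes' responses was -1.65, with an unadjusted 95% interval of -3.18 to -0.12 (edgeR adjusted p = 0.404).

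The remaining metalloproteinases showed wide spread within groups, and the compared groups overlapped for all 3 in every comparison. *Mmp11* (chromosome 10, 75923222 to 75936496, minus strand) ranged from 12.01 to 42.2 CPM over the 12 tumors, and both of these extremes were KPG1 tumors. Its log2 difference with doxycycline was 0.29 in KP and 0.31 in KPG1 (SE 0.47 in each), the latter 1.09 without KPG1 replicate 1 and -0.03 without KPG1 replicate 2. An exon of *Mmp11* overlaps *Chchd10* on the opposite strand, and whether the counting used the strand is not given in the sources used here, so reads of the pair cannot be told apart. *Mmp14* (chromosome 14, 54431612 to 54445364, plus strand) ranged from 70.4 to 363 CPM, and the lowest and the highest tumor were both KP-PPARαΔ13. Its log2 difference with doxycycline was 0.51 in KP and -0.27 in KPG1 (SE 0.55 in each), and that in KP was -0.30 without KP-PPARαΔ13 replicate 2. *Mmp15* (chromosome 8, 95352268 to 95375080, plus strand), which encodes the membrane-type protease MT2-MMP, ranged from 83.3 to 135 CPM in 11 tumors and was at 265 CPM in KP replicate 1. Its log2 difference with doxycycline was -0.47 in KP and -0.18 in KPG1 (SE 0.35 in each), and without KP replicate 1 that in KP was 0.15.

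*Adamts1* (chromosome 16, 85793827 to 85803113, minus strand) encodes a secreted protease that cuts proteoglycans such as versican and aggrecan. It was at 282, 222 and 181 CPM in KP and at 103, 58.1 and 107 CPM in KP-PPARαΔ13 tumors. In KPG1 it was at 180, 159 and 156 CPM and in KPG1-PPARαΔ13 tumors at 108, 92.7 and 63.2 CPM. Every doxycycline tumor was below every regular-diet tumor, and the regular-diet tumors of the 2 genotypes were also separate, with all KPG1 tumors just under the lowest KP tumor. The log2 difference with doxycycline was -1.36 in KP (SE 0.28, a fold of 0.390, edgeR adjusted p = 0.256) and -0.91 in KPG1 (SE 0.27, a fold of 0.533, edgeR adjusted p = 0.420). Averaged over both genotypes it was -1.13 (SE 0.19, edgeR adjusted p = 0.113). The KPG1 tumors differed from the KP tumors by -0.47 on the log2 scale (SE 0.27, edgeR adjusted p = 0.801), and between the doxycycline groups the difference was -0.02 (SE 0.27). The difference between the genotypes' responses was 0.45, with an unadjusted 95% interval of -0.39 to 1.29 (edgeR adjusted p = 0.660).

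*Timp1* (chromosome X, 20870166 to 20874735, plus strand) encodes a soluble inhibitor of most secreted MMPs and is inducible in many tissues. It was at 3.70, 2.46 and 4.11 CPM in KP and at 14.6, 10.8 and 8.88 CPM in KP-PPARαΔ13 tumors. It was at 5.08, 2.75 and 2.61 CPM in KPG1 and at 3.48, 5.12 and 3.32 CPM in KPG1-PPARαΔ13 tumors. The KP-PPARαΔ13 tumors were above all 9 others, while the KPG1 groups overlapped. The log2 difference with doxycycline was 1.74 in KP (SE 0.38, 3.34-fold, edgeR adjusted p = 0.256) and 0.19 in KPG1 (SE 0.37, edgeR adjusted p = 0.875). The difference between these responses was -1.55, with an unadjusted 95% interval of -2.71 to -0.38 (edgeR adjusted p = 0.353). Under doxycycline the KPG1-PPARαΔ13 tumors were lower than the KP-PPARαΔ13 tumors by a log2 difference of -1.52 (SE 0.38, edgeR adjusted p = 0.462), a difference that DESeq2 called (adjusted p = 0.0109, with a range of 0.0109 to 0.903 over all alternatives tried). *Timp1* lies inside an intron of *Syn1* on the opposite strand, and *Syn1* had 164 reads in all over the 12 tumors.

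*Timp3* (chromosome 10, 86300372 to 86349506, plus strand), the inhibitor held in the matrix, ranged from 86.0 to 256 CPM in KP and from 221 to 557 CPM in KP-PPARαΔ13 tumors. In KPG1 it ranged from 154 to 263 CPM and in KPG1-PPARαΔ13 tumors from 230 to 313 CPM. Groups overlapped in both genotypes, with KP replicate 2 the lowest and KP-PPARαΔ13 replicate 2 the highest of the 12. The log2 difference with doxycycline was 0.96 in KP (SE 0.42, edgeR adjusted p = 0.419) and 0.42 in KPG1 (SE 0.41, edgeR adjusted p = 0.730). *Timp3* lies inside *Syn3*, which runs on the opposite strand and overlaps its exons, and *Syn3* was at 2.07 to 6.31 CPM. *Timp2* (chromosome 11, 118301069 to 118355740, minus strand) ranged from 81.2 to 312 CPM, and its log2 difference with doxycycline was 0.65 in KP (SE 0.41) and -0.17 in KPG1 (SE 0.41). An intron of *Timp2* holds *Cep295nl* on the same strand, with 367 reads in all. Both extremes of *Timp2* were doxycycline tumors, the lowest a KPG1-PPARαΔ13 and the highest a KP-PPARαΔ13 tumor. *Plau* (chromosome 14, 20836660 to 20843385, plus strand) ranged from 8.05 to 28.7 CPM, with the lowest tumor in KP and the highest in KPG1, and its log2 difference was 0.40 in KP and -0.06 in KPG1 (SE 0.51 in each), and that in KP was 1.01 without KP replicate 3. The compared groups overlapped for *Timp2*, *Timp3* and *Plau* in every comparison.

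Summed as TPM, the 3 inhibitors were at 392 to 429 in the KP-PPARαΔ13 tumors and at 199 to 270 in KP, 230 to 255 in KPG1 and 227 to 336 in KPG1-PPARαΔ13 tumors. The KP-PPARαΔ13 tumors were thus above the other 9. The 5 metalloproteinases summed to 153 to 335 TPM in KP and 191 to 354 in KP-PPARαΔ13 tumors, and to 144 to 238 and 156 to 228 TPM in KPG1 and KPG1-PPARαΔ13 tumors, with overlap throughout. The ratio of inhibitor to metalloproteinase TPM lay between 0.594 and 2.05, with the lowest tumor in KP and the highest in KP-PPARαΔ13. The metalloproteinase sums hold these 5 genes only and leave out others, such as *Mmp13*. In KP and KP-PPARαΔ13 tumors *Mmp13* was at 1.86 to 32.8 and 41.8 to 184 TPM. In KPG1 and KPG1-PPARαΔ13 tumors it was at 1.15 to 45.8 and 11.2 to 117 TPM. The 184 TPM were in the tumor with the ratio of 2.05, whose 5 metalloproteinases summed to 191 TPM. The ratio thus describes these 5 genes and not all metalloproteinase RNA.

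**Figure D3:**
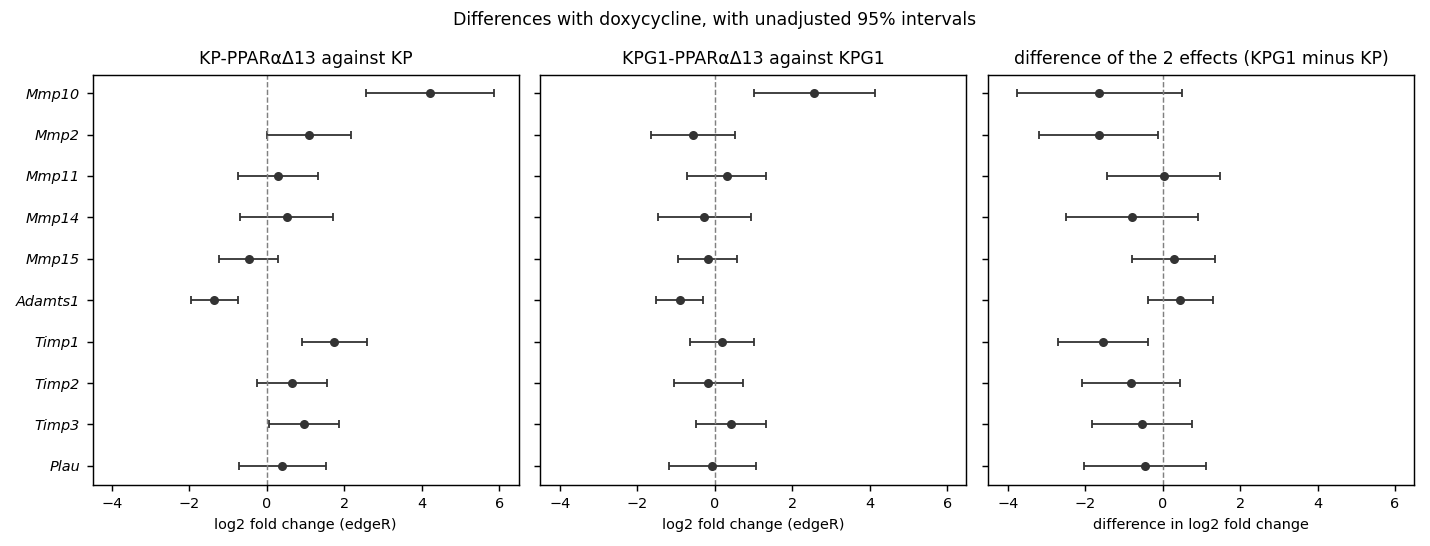
Log2 fold change with doxycycline of the 10 genes in KP (left) and KPG1 (middle), and the difference of these effects as KPG1 minus KP (right), from edgeR with 3 tumors per group. Bars are unadjusted 95% intervals. The intervals of *Mmp10* and *Adamts1* lie on 1 side of 0 in both genotypes, and in the right panel those of *Mmp2* and *Timp1* lie below 0.

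By overlap of the groups, 3 of the 10 genes were higher (*Mmp10*, *Mmp2* and *Timp1*) and 1 lower (*Adamts1*) in every KP-PPARαΔ13 tumor than in every KP tumor, where 6.55% of all genes tested were higher and 6.7% lower in this way. In KPG1, 1 was higher (*Mmp10*) and 1 lower (*Adamts1*), where 11.2% of all genes were higher and 9.41% lower. The same 2 genes were without overlap in both genotypes, *Mmp10* higher, where 0.635% of all genes were, and *Adamts1* lower, where 0.405% were. With the 6 doxycycline tumors set against the 6 regular-diet tumors, *Mmp10* was higher and *Adamts1* lower throughout, where 0.266% of all genes were higher and 0.224% lower. By edgeR 0 of the 10 genes were called in this comparison of 6 with 6 (0.0182% of all genes were), 4 had an unadjusted p under 0.05 (10.1% of all genes), and DESeq2 called 3 (1.75% of all genes). The comparison of 6 with 6 uses the same tumors as those within each genotype.

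Between the genotypes, on the regular diet 1 of the 10 genes did not overlap, *Adamts1*, which was lower in KPG1 than in KP tumors, where 5.13% of all genes were lower without overlap. On doxycycline, *Mmp10*, *Mmp2* and *Timp1* did not overlap and were lower in KPG1-PPARαΔ13 than in KP-PPARαΔ13 tumors, 3 of 10 where 7.25% of all genes were lower. No member was called by edgeR on the regular diet, where 0.0363% of all genes were, or on doxycycline, where 0.0303% were. By unadjusted p under 0.05, 0 of 10 differed on the regular diet (6.23% of all genes) and 3 of 10 on doxycycline (9.69% of all genes), and DESeq2 called 0 and 1 (0.365% and 0.943% of all genes). Averaged over both diets, 0 of 10 genes did not overlap between genotypes (0.188% of all genes), edgeR called 0 (0.0484% of all genes) and DESeq2 0 (0.237% of all genes), and 1 of 10 had an unadjusted p under 0.05 (4.53% of all genes), *Timp1*, with a log2 difference of -0.75 (SE 0.27). For the difference between the genotypes' responses to doxycycline, edgeR called 0 members and 0 of all genes (0%), 2 members had an unadjusted p under 0.05 (11.8% of all genes), *Mmp2* and *Timp1*, and DESeq2 called 0 members (1.74% of all genes).

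Tumors of 1 mouse gave a scale for these differences. In the 3 mice with a pair of tumors, the higher tumor had 2.82 to 3.63 times the *Mmp10* CPM of the lower, 1.14 to 1.70 times the *Adamts1* CPM and 1.05 to 1.84 times the *Timp1* CPM. *Mmp15* and *Mmp11* each differed by more than 3 times within a mouse, up to 3.06 and 3.51 times. The tumors of a mouse are not independent of each other, and the p-values treat the 12 tumors as separate samples.

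Sex was not balanced, since the KP tumors were all from females and the KPG1 tumors all from males, and on the regular diet sex and genotype cannot be told apart. Of the KP-PPARαΔ13 tumors 1 was from a female and 2 from males, and of the KPG1-PPARαΔ13 tumors 2 were from females and 1 from a male. Sex therefore also differed between the diets within each genotype. Within females of the KP genotype, the single KP-PPARαΔ13 tumor had *Mmp10* at 8.97 CPM against 0.182 to 0.940 in KP, *Adamts1* at 58.1 against 181 to 282 CPM and *Timp1* at 10.8 against 2.46 to 4.11 CPM. Within males of the KPG1 genotype, the single KPG1-PPARαΔ13 tumor had *Mmp10* at 3.43 CPM against 0.198 to 1.00, *Adamts1* at 92.7 against 156 to 180 CPM and *Timp1* at 5.12 against 2.61 to 5.08 CPM. The direction for *Mmp10* and *Adamts1* was thus the same within the sex that could be compared.

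The 12 libraries held 25263794 to 32654223 counted reads. *Ppara*, whose reads include the mouse construct, was at 9.54 to 15.7 CPM in KP and 7.24 to 15.3 CPM in KPG1, and in the tumors labelled KP-PPARαΔ13 it was at 2.71, 64.6 and 246.1 CPM and in those labelled KPG1-PPARαΔ13 at 8.90, 19.2 and 17.7 CPM. In 1 library of each doxycycline group it was therefore not above the controls, and all group names here are those of the labels. The other KPG1-PPARαΔ13 libraries, at 17.7 and 19.2 CPM, were little above the highest control, at 15.7 CPM. By edgeR the *Ppara* log2 difference with doxycycline was 3.13 for KP (SE 1.03) and 0.48 for KPG1 (SE 0.96), with overlap in each. For KPG1 it was thus smaller than its SE. Whether this unequal rise of *Ppara* bears on the differences between the genotypes' responses was not tested. Without KP-PPARαΔ13 replicate 1, the log2 difference in KP was 4.17 for *Mmp10*, -1.47 for *Adamts1* and 1.52 for *Timp1*, and without KPG1-PPARαΔ13 replicate 1 that in KPG1 was 2.92 for *Mmp10* and -1.08 for *Adamts1*. *Slc2a1* was at 30.2 to 64.0 CPM in KPG1 and at 35.3 to 57.7 CPM in KP tumors, so its RNA did not separate these labels. It was at 23.7 to 54.5 CPM in KPG1-PPARαΔ13 and at 108 to 153 CPM in KP-PPARαΔ13 tumors, and these groups did not overlap (log2 difference -1.51, edgeR adjusted p = 0.462). KP replicate 2 stood apart with 172 CPM summed over 3 alveolar type 1 markers, against 563 to 2650 CPM in the other tumors, and without it the log2 differences in KP were 3.79 for *Mmp10*, -1.38 for *Adamts1* and 1.55 for *Timp1*. Epithelial markers summed to 2444 to 5608 CPM in the 12 tumors and leukocyte markers to 25.9 to 70.4 CPM.

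Fibroblast markers moved with some of these genes. Summed over 8 markers, they were at 402 to 607 CPM in KP-PPARαΔ13 tumors and 137 to 340 CPM in KP tumors, without overlap. This separation depends on *Dcn* in KP-PPARαΔ13 replicate 1, at 123 of the 444 CPM summed there. In the other tumors of that group *Dcn* was at 10.8 and 4.79 CPM. By gene, 3 of the 8 markers were higher without overlap, where 6.55% of all genes were. A positive log2 difference was seen for 7 of the 8 markers, with 0 called by edgeR. At an unadjusted p under 0.05 there were 3 of the 8, where 11.4% of all genes were. In KPG1 the 8 fibroblast markers summed to 113 to 429 CPM and in KPG1-PPARαΔ13 tumors to 169 to 220 CPM, with overlap. *Lum* was near 0 in all groups, at a mean of 0.236 to 0.347 CPM. Mesothelial markers summed to 158 to 295 CPM in KP-PPARαΔ13 tumors and to at most 94.5 CPM in the other 9, nearly all of it *Msln*, with *Wt1* at a mean of 0.0977 CPM or less in every group. Alveolar type 2 markers summed to 39937 to 66942 CPM in KPG1 and to 23502 to 35040 CPM in KPG1-PPARαΔ13 tumors, without overlap. Of these markers 5 of 5 had a negative log2 difference, with 0 called by edgeR. At an unadjusted p under 0.05 there were 2 of the 5, where 10.8% of all genes were. Alveolar type 1 markers, also without overlap, summed to 1537 to 2170 CPM in KPG1 and to 563 to 969 CPM in KPG1-PPARαΔ13 tumors, with 0 of 3 called. In the KP groups the sums of both alveolar lists overlapped. Erythroid markers summed to 307 to 741 CPM in KP and to 799 to 1249 CPM in KP-PPARαΔ13 tumors, without overlap, and in KPG1 and KPG1-PPARαΔ13 tumors they overlapped. Of the 4 erythroid genes edgeR called 0 in KP and 1 in KPG1, where it called 0.00605% of all genes in each. The 1 called was the globin gene *Hba-a2*, at 0.103 to 0.529 CPM in KPG1 and 29.1 to 122 CPM in KPG1-PPARαΔ13 tumors (log2 difference 7.72, edgeR adjusted p = 0.0105). *Hba-a2* has a near-identical copy, *Hba-a1*, so its count is uncertain. Endothelial markers summed to 107 to 249 CPM in KP, 77.9 to 470 in KP-PPARαΔ13, 92.9 to 288 in KPG1 and 92.8 to 145 in KPG1-PPARαΔ13 tumors. Their log2 differences with doxycycline were positive for 5 of 5 in KP (median 0.14) and negative for 5 of 5 in KPG1 (median -0.67). Mural markers summed to 31.8 to 137, 57.4 to 90.6, 27.9 to 112 and 55.9 to 309 CPM in the same order. Of both lists edgeR called 0 with doxycycline in either genotype. The part of these cell types in the results was not tested. In RNA pooled over the CD45-negative cells of a tumor, fewer cells of a type and less RNA per cell cannot be told apart.

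Over the 9 mice, with tumors of a mouse averaged, the mean log2 level of the fibroblast markers was correlated with *Mmp2* (r = 0.91, exact permutation p = 0.000562, adjusted over 10 genes 0.00562), with a Spearman rho of 0.867 (exact permutation p = 0.00451, adjusted 0.0451). Without the 2 mice farthest from the median, r was 0.84 over 7 mice (exact permutation p = 0.0264, adjusted 0.226), so the relation no longer passed the correction. With the group means removed, r for *Mmp2* was 0.77 and rho 0.65, and in the 48 exchanges of mice within their own groups, which cannot give a p below 0.0208, r had an exact permutation p of 0.0625 (adjusted 0.156) and rho one of 0.146 (adjusted 0.333). *Timp3* had r = 0.75 (exact permutation p = 0.0162, adjusted 0.0809) and rho = 0.533 (exact permutation p = 0.148, adjusted 0.444). For *Timp1* r was 0.64 and for *Mmp10* 0.53, with adjusted exact permutation p = 0.223 and 0.235, and both correlations were negative once the group means were removed, at -0.38 and -0.24. *Adamts1* had r = -0.53 (adjusted exact permutation p = 0.235), and with the group means removed r = -0.78 (exact permutation p = 0.0417, adjusted 0.139) and rho = -0.65 (exact permutation p = 0.0625, adjusted 0.278). The other 5 genes had adjusted exact permutation p-values of 0.235 to 0.486. With the group means removed, *Mmp15* had r = -0.90 (exact permutation p = 0.0208, adjusted 0.139) and *Timp3* r = 0.85 (exact permutation p = 0.0417, adjusted 0.139). Both were stronger than the 0.77 of *Mmp2*, and none of the 10 genes passed the correction there.

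**Figure D4:**
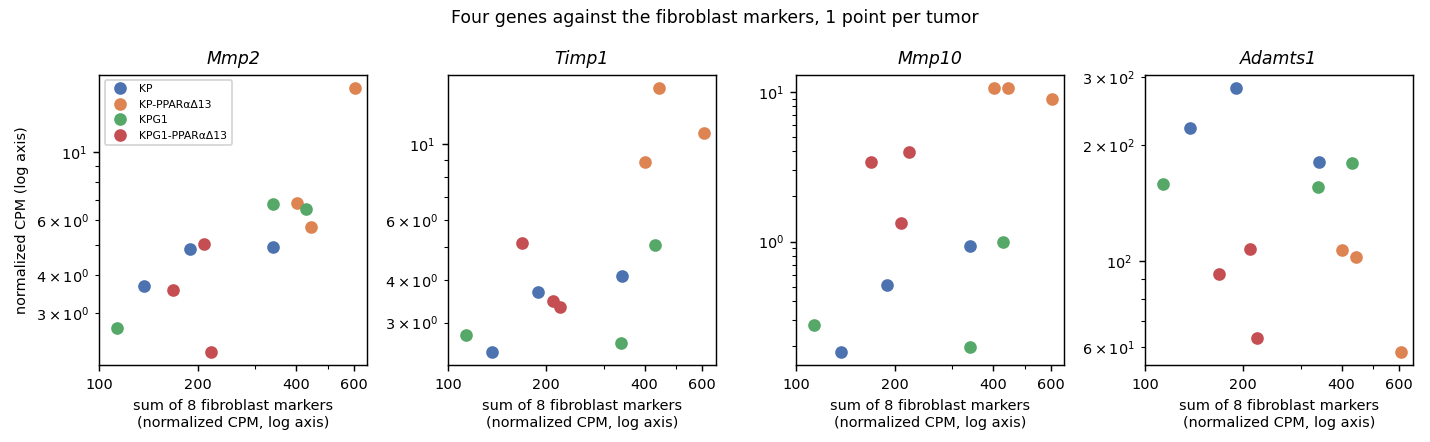
Normalized CPM of *Mmp2*, *Timp1*, *Mmp10* and *Adamts1* (y, log axis) against the summed normalized CPM of 8 fibroblast markers (x, log axis), 1 point per tumor, colored by group. Of these genes *Mmp2* has the highest correlation over the 12 tumors, which include 3 pairs from 1 mouse each. Its r of 0.80 is with the mean log2 level of the 8 markers, not with the plotted sum.

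*Mmp10* lies in a row of metalloproteinase genes on chromosome 9, between *Mmp3*, which ends 46377 bases before it, and *Mmp8*, which begins 48216 bases after it. *Mmp3*, which encodes the closely related stromelysin-1, was at 0.685, 0.455 and 0.870 CPM in KP and at 12.5, 6.33 and 1.47 CPM in KP-PPARαΔ13 tumors, without overlap (log2 difference 3.33, SE 1.00, edgeR adjusted p = 0.315). *Mmp13*, which encodes a collagenase, was at 1.44, 3.12 and 26.2 CPM in KP and at 137, 62.7 and 34.7 CPM in KP-PPARαΔ13 tumors, also without overlap (log2 difference 2.93, SE 1.32, edgeR adjusted p = 0.434). In KPG1 and KPG1-PPARαΔ13 tumors *Mmp3* and *Mmp13* overlapped. *Mmp12*, the macrophage elastase gene, overlapped between the KP groups, and *Mmp8* and *Mmp27* stayed under 1 CPM in all 12 tumors. *Mmp1a*, *Mmp1b*, *Mmp7* and *Mmp20* had at most 4 reads each over all tumors. Without KP-PPARαΔ13 replicate 1 the differences in KP were 2.54 for *Mmp3* and 2.25 for *Mmp13*, and without KP replicate 3 that of *Mmp13* was 5.10. *Mmp10* was thus the only gene of this row whose groups did not overlap in both genotypes among the 6 with at least 80 reads in all. Outside the row, *Mmp24* was also higher without overlap in both genotypes, at low levels. It was at 0.514 to 2.91 CPM in KP-PPARαΔ13 tumors against at most 0.174 CPM in KP. In KPG1-PPARαΔ13 tumors it was at 0.273 to 0.554 CPM against at most 0.103 CPM in KPG1.

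**Figure D5:**
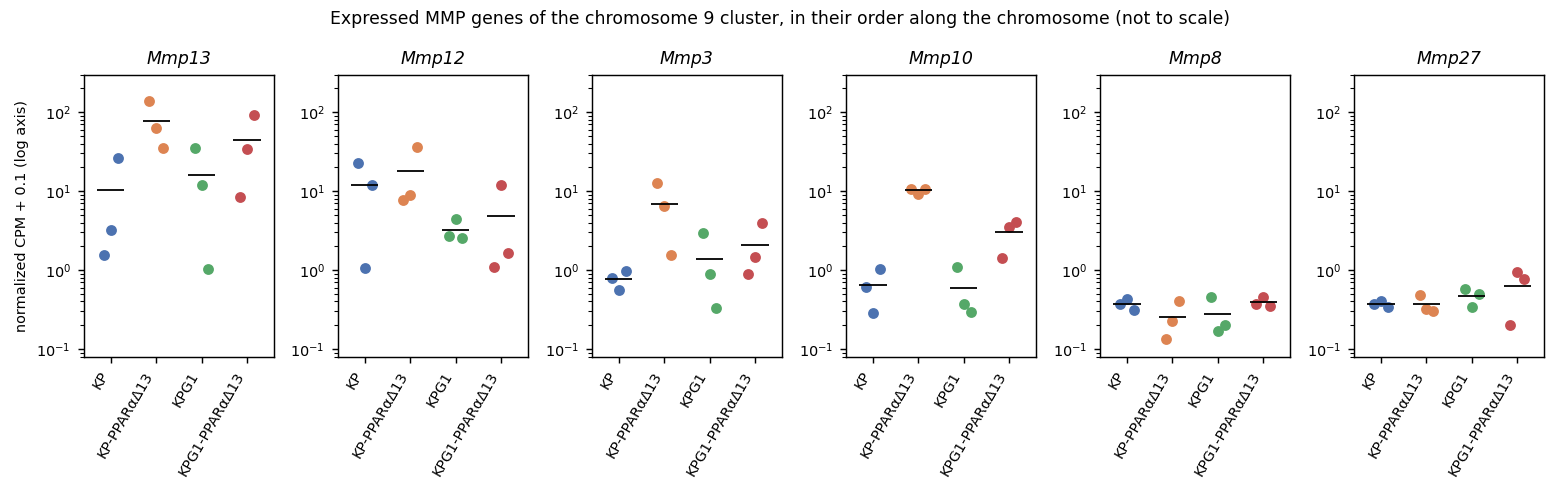
Normalized CPM + 0.1 (log axis) of the 6 genes of the chromosome 9 metalloproteinase row with at least 80 reads in all, in their order along the chromosome, 1 point per tumor with a line at the group mean (n = 3). *Mmp13*, *Mmp3* and *Mmp10* are higher in each KP-PPARαΔ13 tumor than in each KP tumor, and *Mmp10* is also separate in KPG1.

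A wider list of 50 other matrix proteases and inhibitors, drawn up by family, had 39 genes with enough counts, of which edgeR called 0 in any comparison. In KP 7 were higher and 6 lower with doxycycline at an unadjusted p under 0.05 (11.4% of all genes in either direction), and DESeq2 called 5 higher and 3 lower (2.26% of all genes). In KPG1 these counts were 5 and 2 by unadjusted p (10.8% of all genes), and 2 and 0 by DESeq2 (1.28% of all genes). In KP the groups did not overlap for 7 higher and 4 lower genes, where 6.55% of all genes were higher and 6.7% lower in this way. Among the higher ones, *Mmp9*, which encodes gelatinase B, had a log2 difference of 3.37 (SE 0.83, edgeR adjusted p = 0.289) and a level of 1.52 to 7.67 CPM in KP-PPARαΔ13 tumors against 0.0606 to 0.685 CPM in KP. *Plat*, the tissue plasminogen activator gene, was at 62.9 to 75.0 CPM against 27.4 to 41.8 CPM (log2 difference 1.11, edgeR adjusted p = 0.305), and *Plaur*, which encodes the urokinase receptor, at 34.2 to 62.7 against 7.28 to 33.2 CPM (log2 difference 1.35, edgeR adjusted p = 0.431). *Plau*, which encodes the ligand of that receptor, overlapped. Among the lower ones, *Adamts6* had a log2 difference of -2.09 (edgeR adjusted p = 0.315), *Reck*, which encodes a membrane-anchored MMP inhibitor, one of -1.10, *Serpinf2*, the plasmin inhibitor gene, one of -0.94, and *Adamts9* one of -0.52. Without KP-PPARαΔ13 replicate 3 the difference of *Mmp9* was 2.42, and without KP replicate 3 that of *Plaur* was 2.09. *Adamts9* was the most abundant of these in CPM, at 177 to 234 in KP and 112 to 162 in KP-PPARαΔ13 tumors.

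Among wider-list genes without overlap in KPG1, *Plg*, the plasminogen gene, *Adamts18* and *Adamts7* were higher in KPG1-PPARαΔ13 tumors (log2 differences 6.35, 5.26 and 1.495) and *Serpine2*, which encodes protease nexin-1, was lower (-1.14), with edgeR adjusted p-values of 0.420 to 0.462. *Plg* was listed at 0 in 2 of the 3 KPG1 tumors, so its fitted value depends on the prior count. *Adamts18* was at 1.23, 36.0 and 1.97 CPM in KPG1-PPARαΔ13 tumors, and without replicate 2 of that group its difference was 2.23. In KP both *Plg* and *Adamts18* were called lower with doxycycline by DESeq2, with log2 differences of -6.49 and -5.00 (DESeq2 adjusted p = 0.00232 and 0.0153). The KP groups overlapped for both genes. KP replicate 1 had 0.0342 CPM of *Plg* and 0.0685 CPM of *Adamts18*, against up to 0.171 and 0.167 CPM in KP-PPARαΔ13 tumors. Between genotypes on the regular diet, *Mmp23* (2.34) and the lysosomal protease gene *Ctsb* (0.68) were higher and *Plg* (-8.80) and *Serpinf2* (-1.26) lower in KPG1, as log2 differences without overlap, and *Plg* in KP was mostly from replicate 2, at 16.8 CPM. *Mmp23* was at 4.28, 27.3 and 6.54 CPM in KPG1 tumors, and without replicate 2 of that group its difference was 1.12. On doxycycline, *Adamts18*, *Plg*, *Adamts6* and *Adamts7* were higher and *Mmp9* and *Plat* lower in KPG1-PPARαΔ13 than in KP-PPARαΔ13 tumors, with log2 differences of 6.98, 3.98, 2.31, 1.35, -4.23 and -0.60, and the edgeR adjusted p of *Mmp9* was 0.385. Without KPG1-PPARαΔ13 replicate 2 the differences of *Adamts18* and *Plg* were 3.95 and 2.80, and without KP-PPARαΔ13 replicate 3 that of *Mmp9* was -3.28. For genotype on doxycycline DESeq2 called *Adamts18*, *Adamts6* and *Mmp9* (DESeq2 adjusted p = 0.000182, 0.0218 and 0.000685, 0.943% of all genes). On the regular diet it called *Plg* (0.000443, 0.365% of all genes). For the difference between the genotypes' responses it called *Plg* and *Adamts18* (3.70e-05 and 4.48e-05, 1.74% of all genes).

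By Pearson correlation of log2 CPM over the 12 tumors, among 11593 genes, the patterns most like that of *Mmp10* were those of *Rab11fip5* (0.93), *Avil* (0.91) and *Palmd* (0.89). For *Adamts1* they were *Prpf40b* (0.95), *Slc41a1* (0.93) and *Rims1* (0.92), and for *Timp1* *Podxl*, *Celf2* and *Anxa4* (0.91, 0.91 and 0.90). *Mmp2* was most like *Ddx47* (0.90), *Sulf1* (0.89) and *Col3a1* (0.84), the last of which is among the fibroblast markers. *Mmp11* was most like *Krr1* (0.87), *Mmp14* most like *Pcgf1* (0.85), and *Mmp15* most like *Yod1* (0.93). *Timp2* was most like *G6pdx* (0.93), *Timp3* most like *Psapl1* (0.94), and *Plau* most like *Cars* (0.87). These are the highest of many correlations in tumors that share libraries and groups, and they describe likeness only.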

How the data were processed

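RNA of CD45-negative cells from 12 tumors was sequenced from TruSeq stranded mRNA libraries. The authors trimmed the reads with Cutadapt and aligned them to mm10 with HISAT2, and the submitters' processing notes also name featureCounts 1.4.4 and edgeR. The authors deposited, per tumor, whole-number counts of reads over genes, and the files of all 12 tumors equal the deposited combined table. They also deposited log2 values, which equal log2 CPM of the count plus 0.5 on TMM-scaled library sizes to within 5.3e-14. The strand setting of the counting is not given in the sources used here. The tables held 0 columns that could not be matched to a sample.

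The counts were tested with edgeR 4.0.16 (R 4.3.3) in 1 quasi-likelihood fit of all 4 groups, with TMM factors, filterByExpr and Benjamini-Hochberg adjustment over 16527 genes. The study's own test, limma voom after a filter at 20 TPM, was split into 2 alternatives. TPM was computed from the counts and GENCODE M21 exon lengths, which hold 96.6% of the gene identifiers and 99.75% of the counts. The members and lists were chosen with earlier results of these data known. Beyond the members, the wider-list genes named are up to 5 per direction and comparison without overlap and with a mean of at least 1 CPM, ordered by log2 difference. *Mmp24*, which is under that mean, is named beside the chromosome 9 row. For likeness, the 3 most correlated genes with a mean of at least 5 CPM were taken. Groups, replicate numbers and sex come from the labels, and the mouse from a number in them read as the mouse. Replicates in a group differed by 84.1 to 304 times the chi-square expected from counting alone, so none was a repeat of another. The biological coefficient of variation was 0.44, with 8 residual degrees of freedom. In simulated data for KP-PPARαΔ13 against KP (16323 genes), edgeR called 10.3% of 2-fold, 54.5% of 4-fold and 90.9% of 16-fold changes. Correlations used a two-sided exact permutation test over 9 mice, within groups (48 exchanges) where group means were removed. Alternatives were DESeq2 1.42.0, limma voom 3.58.1, RLE and upper-quartile factors, no filter, a filter at 20 TPM, the compared groups alone, sex as a covariate, a replicate block, summed tumors of a mouse, and leaving out each tumor. Figures were drawn with matplotlib 3.10.9.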

Additional observations from a re-analysis of the deposited data

How the results depend on the processing

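DESeq2 called 372, 211, 60 and 155 genes for doxycycline in KP, doxycycline in KPG1, genotype on the regular diet and genotype on doxycycline, against 1, 1, 6 and 5 by edgeR, and 286, 288 and 39 for the interaction, doxycycline over both genotypes and genotype over both diets, against 0, 3 and 8. It called 3, 1, 1 and 3 members for doxycycline in KP, doxycycline in KPG1, genotype on doxycycline and doxycycline over both genotypes. For the last of these limma voom and the fit with no filter each called 1, *Mmp10* (adjusted p = 0.0468 and 0.0498, with a range of 2.53e-09 to 0.287 over all alternatives tried). Other counts of all genes that moved by more than 1.5 times were 2 (doxycycline in KP) and 5 (doxycycline over both genotypes) with no filter, 0 (doxycycline in KPG1) with limma voom, 4 (genotype over both diets) at 20 TPM, a filter that also removed *Mmp10* and *Mmp2*, and 0, 0 and 10 (both doxycycline comparisons and genotype on the regular diet) with the compared groups alone. With sex as a covariate they were 0, 2 and 2 (doxycycline in KP and genotype on either diet), and with tumors of a mouse summed 0, 0, 2, 2 and 3 (doxycycline in either genotype, genotype on either diet and over both). The replicate block gave 0, 2, 3 and 5 (doxycycline in KP, in KPG1, genotype on doxycycline and over both diets), and it called no member. The replicate numbers did not pair the tumors: the 18 same-number correlations of deviations from the group means ran from -0.19 to 0.13, and 1 of 12 tumors correlated best with a tumor of its own number.

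Leaving out each tumor in turn gave 0 to 1 genes for doxycycline in KP, 0 to 2 in KPG1, 2 to 6 for genotype on the regular diet, 2 to 10 on doxycycline and 2 to 13 for doxycycline over both genotypes, and no member was called in any of these fits. Members without overlap numbered 2 to 4 for doxycycline in KPG1 (29.3% to 35.7% of all genes), 1 to 2 for genotype on the regular diet (16.0% to 23.5%) and 3 to 5 on doxycycline (24.1% to 32.1%), and 5 in KPG1 with the tumors of a mouse averaged (42.9%), alternatives chosen after seeing the data. Of 840 member differences with a tumor left out, 834 kept their call and, where larger than their SE, their sign. In the main fit no member was called and 35 of 70 member differences were larger than their SE, so a turned sign was counted for these only. The sign of *Mmp15* turned without KP replicate 1, for doxycycline in KP (range -0.76 to 0.15), genotype on the regular diet (-0.69 to 0.21) and genotype over both diets (-0.40 to 0.0490). That of *Mmp14* turned without KP-PPARαΔ13 replicate 2 for genotype on doxycycline (-0.99 to 0.22) and the interaction (-1.36 to 0.0255), as did that of *Timp3* for genotype on doxycycline (-0.68 to 0.0305). Of the 656 differences under the other alternatives 645 were the same in this sense, 10 passed the threshold only there, and the interaction of *Timp2* turned to 0.14 with sex as a covariate. The correlations with the fibroblast markers reversed with the group means removed for *Mmp10* (-0.24), *Timp1* (-0.38) and *Timp2* (-0.49), and without the 2 extreme mice for *Mmp11* (-0.16) and *Mmp14* (-0.20). That of *Mmp2* no longer passed the correction without them (0.84) or with the group means removed (0.77), where mice were exchanged only within groups, a test chosen after seeing the data, and no member passed. The cause of these changes was not tested. Low counts limit the values of *Mmp10* on the regular diet and those of *Mmp9*, *Mmp3* and *Plg*.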
